A study of Mus musculus with 6 samples.

Results

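Semaphorins, plexins, neuropilins and the plexin-domain-containing genes were examined in macrophages that carried a mutant glucocorticoid receptor and were stimulated with lipopolysaccharide (LPS) with or without dexamethasone (Dex). The members were all rows of the authors' deposited gene table whose symbol begins with Sema3 to Sema7, Plxn or Plxdc or is Nrp1 or Nrp2, which gave 33 of 23235 genes, namely 20 semaphorins, 9 plexins, 2 neuropilins and 2 Plxdc genes. The cells were primary macrophages grown from mouse bone marrow with L-929 conditioned medium, and every group was homozygous for the GRdim allele, which weakens dimerization of the receptor. One group of 3 samples (LPS) received LPS for 6 h, and the other group of 3 samples (LPS+Dex) received 1 µM Dex overnight and then LPS for 6 h. The labels give no age of the animals, no LPS dose and no word on whether the 3 samples per group were separate animals or cultures, so the spread behind a test may be technical. Neither cells with the normal receptor nor unstimulated cells were analysed here, so a difference is that of Dex in stimulated GRdim cells and cannot be set against the normal receptor.

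Semaphorins are guidance proteins that share a sema domain. Those of class 3 are secreted, most others span the membrane, and Sema7a is held by a lipid anchor. Their main receptors are the plexins, whose cytoplasmic part acts on small GTPases and loosens adhesion and the actin cytoskeleton, while neuropilins hold most class 3 ligands and also bind VEGF. In the immune system these genes are known for contacts between myeloid cells and T cells, for dendritic cell migration and for macrophage adhesion. The Plxdc genes encode cell surface proteins with a short plexin-like domain and are not plexins.

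Levels, test statistics and q values come from the authors' deposited table, with 1 FPKM value per group (fragments counted per length of transcript and per library total) and no value per sample. Levels therefore carry no SD, the depth of the libraries is unknown, and the spread between samples enters only through the authors' test. A log2 fold change is that of LPS+Dex over LPS. Its 95% interval was taken from the implied standard error (SE), the ratio of the fold change to the deposited test statistic, whose normal tail gives the deposited p-value. Calls of higher or lower required an authors' q below 0.05, adjusted over 11755 tested genes. In bulk RNA, fewer cells of a type and less RNA per cell cannot be told apart.

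Of 8 macrophage markers 7 were tested, each at 29.3 FPKM or more in both groups, while Lyz2 was listed at 0 in both groups with the status HIDATA. Cd68, Csf1r and Itgam were called higher, Emr1 was called lower, and Cd14, Fcgr1 and Mertk were not called. Relative to the running median of genes of like expression, Emr1 was at −0.046 and no longer called (recomputed q = 0.641). On the same scale Cd14 was called higher (log2 0.34, recomputed q = 0.000246), and the calls of the other tested macrophage markers did not change. Markers of B cells summed to 0.0124 FPKM in LPS and 0.0182 FPKM in LPS+Dex, and those of T cells to 0.509 and 0.361 FPKM, nearly all of it from Cd4, which was called lower from 0.500 to 0.350 FPKM, while Cd3e, Cd3d, Cd3g and Cd8a stood at 0.00873 FPKM or less. Of 6 fibroblast markers 5 were too low for a test, and Dcn was called higher, from 0.389 to 0.703 FPKM. The 6 endothelial markers summed to 26.9 FPKM in LPS and 13.7 FPKM in LPS+Dex, most of it from Kdr, which fell from 24.8 to 11.8 FPKM. Tie1 was called lower from 0.976 to 0.803 FPKM, Pecam1 (0.961 and 0.902 FPKM) and Cdh5 (0.186 and 0.154 FPKM) were not called, Tek was too low for a test and Emcn was listed at 0 in both groups. The part of other cell types in the results was not tested. Of 5 neutrophil markers, S100a8 rose, S100a9 and Camp fell, and the sum was 53.5 and 60.9 FPKM. Most of that sum came from S100a8 (27.5 and 40.9 FPKM) and S100a9 (24.0 and 18.8 FPKM). Mpo (0.0955 and 0.0762 FPKM) and Elane (0.0480 and 0.0314 FPKM) were too low for a test. Of 4 plasmacytoid dendritic cell markers, Siglech was too low for a test, at 0.0120 and 0.0121 FPKM, and the others were called lower. They were Bst2 (878 and 769 FPKM), Tcf4 (13.4 and 10.4 FPKM) and Ccr9 (0.468 and 0.300 FPKM). Relative to genes of like expression Bst2 was at 0.00070 and no longer called (recomputed q = 0.997), while Tcf4 and Ccr9 stayed lower, at −0.34 and −0.74.

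In the GRdim cells the family split, with 6 members higher and 8 lower with Dex among 18 tested. Over all genes tested in the authors' deposited table, 42.9% were called, 17.7% higher and 25.2% lower. Sema6b and Plxdc1 rose 2.74-fold and 1.88-fold, and Sema4a and Plxdc2 fell to 0.483 and 0.395 of their LPS levels. The most abundant members, Nrp2 and Sema4d, were lower by less, at 0.785 and 0.817 of their LPS levels. Of the most abundant plexins, Plxna1 and Plxnd1 were higher by small factors, 1.14 and 1.13, and Plxnb2 was lower, at 0.922 of its LPS level. The median log2 fold change of the tested members was −0.048, against −0.011 for all tested genes, so the members had no common direction.

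The share called among tested genes rises with expression, to 47.6% for genes of at least 1 FPKM in a group, where 11 of 13 members were called. Of the 18 tested members, 3 (Plxnb3, Sema5a and Sema7a) had 1 group below 0.110 FPKM, the highest value of any gene left without a test for low signal, so they may owe their test to the group in which they were higher, and the count of called members is given as a description. Counting only changes of at least 1.5-fold, 7 members were called, 3 higher and 4 lower, against 10.5% of all tested genes. The 7 include Plxnb3, Sema5a and Sema7a, so this count too is a description.

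**Figure D1:**
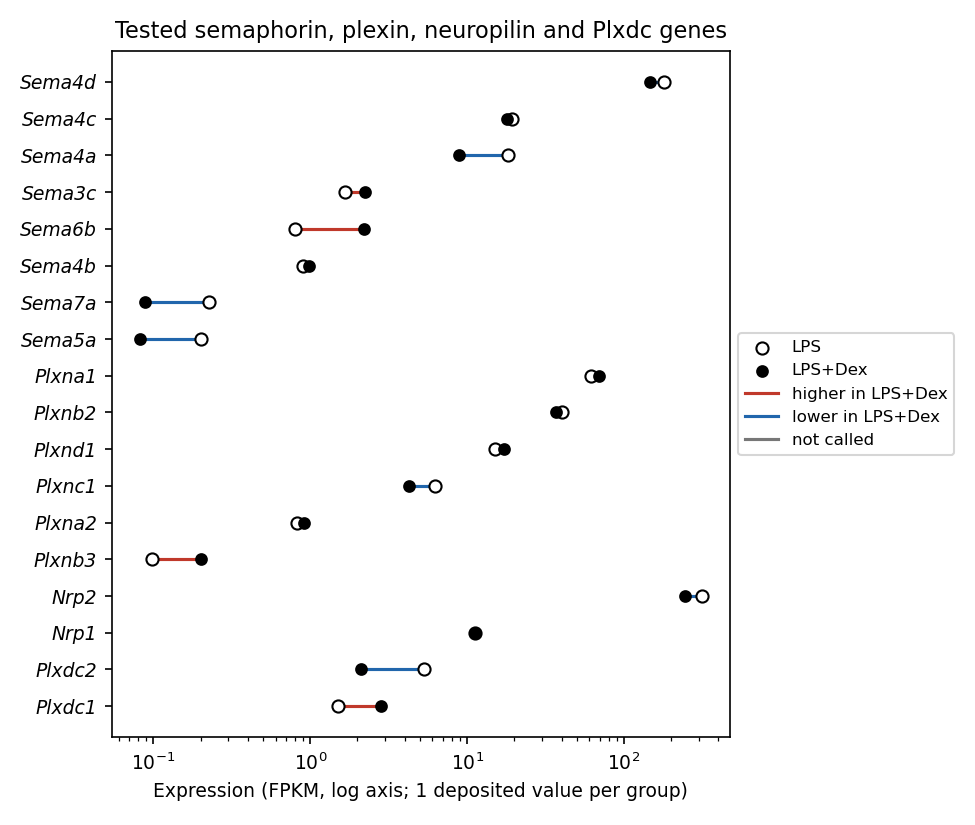
Expression of the 18 tested members in FPKM on a log axis, with an open circle for LPS and a filled circle for LPS+Dex, 1 deposited value per group and no error bar. Levels span from under 0.1 FPKM to 315 FPKM for Nrp2 in LPS, and the widest gaps are those of Sema6b, Plxdc2, Sema4a and the 3 scarcest members.

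Among the ligands, the membrane semaphorins of class 4 held nearly all of the signal. Sema4d alone made up 81.1% of the summed semaphorin FPKM in LPS and 81.7% in LPS+Dex. The summed level of the 20 semaphorins was 221 FPKM in LPS and 179 FPKM in LPS+Dex, and that of class 4 was 218 and 174 FPKM. FPKM is scaled to transcript length, so these levels can be set side by side, but the shares carry no error.

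Sema4d (chromosome 13, 51796616 to 51889013, mm9 as listed) encodes CD100, which binds plexins of the B type and, in lymphoid cells, CD72. It was listed at 179 FPKM in LPS and 146 FPKM in LPS+Dex. The log2 fold change was −0.29 (95% interval −0.40 to −0.18, q = 1.7e-06). In FPKM, well expressed genes as a whole stood lower in LPS+Dex than in LPS, with a running median of all tested genes of −0.16 at the level of Sema4d. FPKM is relative to the library total, and the part of that scaling in the shift was not tested. Relative to the running median Sema4d was at −0.13 and no longer called (recomputed q = 0.0600).

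Sema4a (chromosome 3, 88239883 to 88265104), known for priming of T cells by dendritic cells, was called lower in the authors' deposited table. It went from 18.4 FPKM in LPS to 8.86 FPKM in LPS+Dex. The log2 fold change was −1.05 (95% interval −1.18 to −0.92), its q was listed as 0, and relative to genes of like expression it was −1.02. The level of Sema4d was 9.77 times that of Sema4a in LPS and 16.5 times in LPS+Dex. The 5 dendritic cell markers summed to 3.29 FPKM in LPS and 0.803 FPKM in LPS+Dex, most of it from Ccr7. Ccr7 was called lower from 2.63 to 0.589 FPKM, and Xcr1 from 0.529 to 0.114 FPKM. Flt3 (0.0177 and 0.0212 FPKM), Zbtb46 (0.0672 and 0.0405 FPKM) and Clec9a (0.0461 and 0.0387 FPKM) were too low for a test. The part of dendritic cells in the fall of Sema4a was not tested.

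The remaining class 4 genes did not pass. Sema4c, which encodes a ligand of plexin-B2, was listed at 19.3 FPKM in LPS and 18.0 FPKM in LPS+Dex (log2 −0.10, 95% interval −0.20 to −0.0049, q = 0.0840). Sema4b stood at 0.897 and 0.982 FPKM (log2 0.13, 95% interval −0.090 to 0.35, q = 0.375). The interval of Sema4c leaves room for a fall to 0.872 of its LPS level and that of Sema4b for a rise of 1.28-fold. Sema4f and Sema4g were too low for a test, at 0.0606 FPKM or less.

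Of the 4 class 6 genes, Sema6b (chromosome 17, 56262507 to 56279766) was the one with a test, and its rise had the greatest fold of any member called higher. This membrane semaphorin is known as a ligand of plexin-A2 and plexin-A4. It went from 0.801 FPKM in LPS to 2.20 FPKM in LPS+Dex in the authors' deposited table. The log2 fold change was 1.46 (95% interval 1.25 to 1.66), its q was listed as 0, and on the log2(FPKM + 1) scale, which tempers scarce genes, the change was 0.83. Of all tested genes, 98.1% changed by less on the log2 scale. Sema6c was listed at 0.0111 and 0.0366 FPKM, Sema6d at 0.0647 and 0.0638 FPKM, and Sema6a at 0.000485 FPKM in LPS and 0 in LPS+Dex, all without a test.

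The promoters of Sema6b and of other called members are shown for the glucocorticoid receptor half-site, AGAACA or TGTTCT read on both strands, because the mutation concerns the dimer of the receptor, and the dimer is known to bind a palindrome of such half-sites whereas a monomer can bind 1 of them. Promoter windows were taken from RefSeq sequences on build GRCm38.p6, 250 bases before to 50 bases after each annotated start. They were matched by symbol and gave 37 windows for 26 of 33 members. These windows are not placed by the deposited table, which uses mm9. Sequences run 5′ to 3′ along the gene, and capitals mark the half-site. Only windows that hold it are printed, and not all of those.
Sema6b, chr17:56140294-56140593, minus strand: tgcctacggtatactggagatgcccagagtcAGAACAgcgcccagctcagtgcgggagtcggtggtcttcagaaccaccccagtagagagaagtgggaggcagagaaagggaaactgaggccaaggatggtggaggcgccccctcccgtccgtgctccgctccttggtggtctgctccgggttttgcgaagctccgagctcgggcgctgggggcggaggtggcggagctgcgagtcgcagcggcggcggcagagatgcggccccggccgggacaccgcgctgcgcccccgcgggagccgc
Sema6b, second annotated start, chr17:56133803-56134102, minus strand: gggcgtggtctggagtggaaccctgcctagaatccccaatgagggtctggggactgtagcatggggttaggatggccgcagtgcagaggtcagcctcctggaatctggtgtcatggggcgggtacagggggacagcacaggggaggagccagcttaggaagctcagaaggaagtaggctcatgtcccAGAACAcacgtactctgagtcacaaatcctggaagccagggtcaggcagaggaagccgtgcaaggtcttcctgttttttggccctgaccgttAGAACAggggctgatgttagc
Plxnd1, chr6:115994956-115995255, minus strand: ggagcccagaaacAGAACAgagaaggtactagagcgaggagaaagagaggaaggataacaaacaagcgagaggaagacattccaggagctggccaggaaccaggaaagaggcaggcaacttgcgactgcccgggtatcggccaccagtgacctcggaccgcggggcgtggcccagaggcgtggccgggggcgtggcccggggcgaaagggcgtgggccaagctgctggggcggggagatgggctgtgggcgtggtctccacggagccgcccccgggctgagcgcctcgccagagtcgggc
Sema4d, chr13:51756634-51756933, minus strand: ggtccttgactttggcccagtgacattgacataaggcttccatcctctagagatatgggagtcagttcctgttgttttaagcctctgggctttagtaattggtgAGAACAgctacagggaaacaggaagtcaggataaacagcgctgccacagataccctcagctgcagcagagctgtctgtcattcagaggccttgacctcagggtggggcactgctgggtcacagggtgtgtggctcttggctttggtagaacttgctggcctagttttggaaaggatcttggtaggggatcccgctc

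The half-site was in 8 of 37 member windows, from Sema6b, Plxnd1, Sema4d, Sema6d and Plxna3, against 19.0% of 32851 promoter windows of the same length in the table. Of 11 called members with a window, 3 held it, namely Sema6b and Plxnd1, which were higher with Dex, and Sema4d, which was lower. That counts genes, and a gene can have several windows, so it cannot be set against the 19.0% of windows. By window, 6 of 18 windows of called members held it, with more from Sema4d and Sema6b than from Plxnd1. In Sema6b the matches began 219 bases before the first start and, at the second start, 63 bases before and 29 bases after it. The palindrome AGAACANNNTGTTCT was in none of the 37 member windows and in 3 of all 32851. The AP-1 motif TGANTCA, which reads as itself on the other strand, was in windows of Sema4c, Sema4d and Sema6b, 3 of 37, against 7.81% of all windows. An NF-kB motif was in windows of Sema4a, Sema4b, Sema4c and Sema6c, 4 of 37, against 4.51%. Matches of different motifs overlapped in 0 cases in the member windows. These letters describe the sequence and say nothing of where the receptor was bound.

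Sema3c, the 1 class 3 gene with a test among 7, encodes a secreted ligand that acts through neuropilins and plexin-D1. It was listed at 1.68 FPKM in LPS and 2.24 FPKM in LPS+Dex in the authors' deposited table. The log2 fold change was 0.42 (95% interval 0.27 to 0.57, q = 2.16e-07), and 0.28 on the log2(FPKM + 1) scale. The other 6 class 3 genes had no test and stood at 0.0305 FPKM or less in both groups. Sema3e, the ligand of plexin-D1 in the vasculature, and Sema3g were listed at 0 in LPS. Sema3a, the classical axon repellent, stood at 0.00863 and 0.0113 FPKM, and Sema3f, a neuropilin-2 ligand, at 0.0164 and 0.0270 FPKM.

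Of the scarce ligands with a test, Sema5a and Sema7a were both lower with Dex. Sema5a, which carries thrombospondin repeats and binds plexin-B3, was listed at 0.201 FPKM in LPS and 0.0818 FPKM in LPS+Dex (log2 −1.29, 95% interval −1.66 to −0.93, q = 3.79e-11). Sema7a, known for activating monocytes through beta-1 integrin and as a ligand of plexin-C1, was listed at 0.226 and 0.0889 FPKM (log2 −1.35, 95% interval −1.99 to −0.70, q = 0.000177). On the log2(FPKM + 1) scale these changes were −0.15 and −0.17. Sema5b was listed at 0 in both groups.

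**Figure D2:**
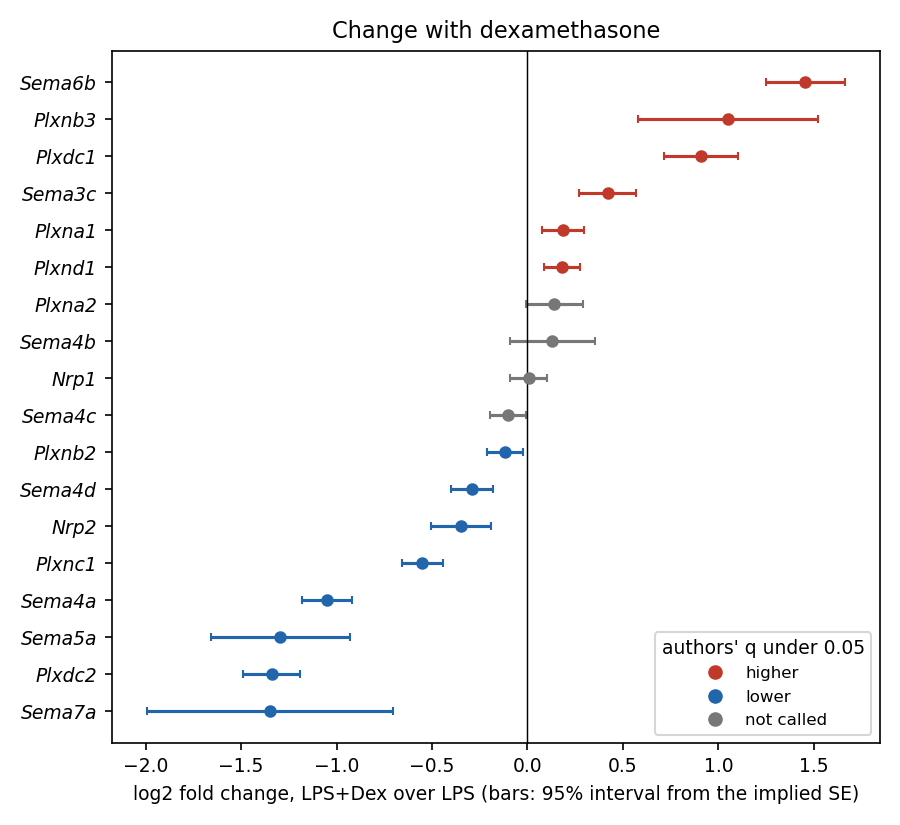
Log2 fold change of LPS+Dex over LPS for the 18 tested members, ordered by size, with bars for the 95% interval from the implied SE and colour for the authors' call. Sema6b is highest at 1.46, Sema7a has the lowest value at −1.35 with a wide bar, and the 4 members not called lie between −0.10 and 0.14.

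Among the receptors, Plxna1 and Plxnb2 held most of the plexin signal, with 49.5% and 32.4% of the summed plexin FPKM in LPS and 53.9% and 28.6% in LPS+Dex. The sum over 9 plexins was 124 FPKM in LPS and 129 FPKM in LPS+Dex. Of 6 plexins with a test, 3 were higher, 2 lower and 1 not called, beside 17.7% higher and 25.2% lower over all tested genes.

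Plxna1 (chromosome 6, 89266307 to 89312607) encodes plexin-A1, which pairs with Trem2 and Tyrobp in mouse osteoclasts and dendritic cells. It rose from 61.4 to 69.8 FPKM in the authors' deposited table (log2 0.18, 95% interval 0.075 to 0.29, q = 0.00320). At its level the running median of all tested genes was −0.12, and relative to that the change was 0.30 (recomputed q = 5.05e-07). Plxnd1, which encodes plexin-D1, the receptor of Sema3e and a receptor of Sema4a, rose from 15.1 to 17.1 FPKM (log2 0.18, 95% interval 0.086 to 0.28, q = 0.000685). Plxna2 was not called at 0.822 and 0.906 FPKM (log2 0.14, 95% interval −0.0069 to 0.29, q = 0.124).

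Plxnc1 (chromosome 10, 94253611 to 94407212), which encodes plexin-C1, the plexin of Sema7a, fell from 6.27 FPKM in LPS to 4.28 FPKM in LPS+Dex in the authors' deposited table. The log2 fold change was −0.55 (95% interval −0.66 to −0.44), its q was listed as 0, and it was −0.57 relative to genes of like expression. Itgb1, which encodes the integrin partner of Sema7a, was not called at 167 and 156 FPKM. Plxnb2, which encodes a receptor of Sema4c and Sema4d, was called lower by a narrow margin at 40.2 and 37.1 FPKM (log2 −0.12, 95% interval −0.21 to −0.021, q = 0.0398). Centring on the median of genes with 1 FPKM or more put it at −0.092 and ended the call (recomputed q = 0.118), and relative to genes of like expression it was −0.033 (recomputed q = 0.657).

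Plxnb3, which encodes the receptor of Sema5a, rose from 0.0976 to 0.202 FPKM in the authors' deposited table (log2 1.05, 95% interval 0.58 to 1.52, q = 5.61e-05). On the log2(FPKM + 1) scale its change was 0.13. Like Sema5a and Sema7a, it had 1 group below the 0.110 FPKM limit and may owe its test to the group in which it was higher, so nothing is read from the directions of these ligands and their plexins. Plxnb1, the high-affinity receptor of Sema4d in other tissues, was nearly silent at 0.000854 and 0.0142 FPKM and had no test. Plxna4 (0.00741 and 0.00404 FPKM) and Plxna3 (0.0884 and 0.0974 FPKM) had none either. For Sema4d, the receptors with signal in these cells were therefore Plxnb2 and Cd72, the latter not called at 169 and 181 FPKM but called higher relative to genes of like expression (log2 0.26, recomputed q = 3.75e-05). Plxna2 stood near the level of Sema6b in LPS (0.822 against 0.801 FPKM) and below it in LPS+Dex (0.906 against 2.20 FPKM). Plxna4, the other receptor of Sema6b, was near 0.

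The neuropilins were unequal. Nrp2 (chromosome 1, 62749890 to 62865266), the receptor of Sema3f and of VEGF-C, was listed at 315 FPKM in LPS and 247 FPKM in LPS+Dex, above 97.7% of tested genes by its mean. Its log2 fold change was −0.35 (95% interval −0.51 to −0.19, q = 6.36e-05). The running median at that level was −0.19, and relative to it Nrp2 was at −0.16 and no longer called (recomputed q = 0.106). Nrp1 (chromosome 8, 130882972 to 131029375), the receptor of Sema3a and VEGF-A, was not called at 11.2 FPKM in both groups (log2 0.0057, q = 0.943), and its 95% interval runs from 0.938 to 1.07 of the LPS level. The ratio of Nrp2 to Nrp1 was 28.2 in LPS and 22.0 in LPS+Dex. The gene 4930487H11Rik shares the listed locus of Nrp2 in the authors' deposited table, at 0.654 and 0.541 FPKM. Whether reads were assigned by strand was not stated in the sources used.

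The Plxdc pair moved in opposite directions. Plxdc1 (chromosome 11, 97784550 to 97847760), first known as a tumour endothelial marker, rose from 1.5 FPKM in LPS to 2.82 FPKM in LPS+Dex in the authors' deposited table (log2 0.91, 95% interval 0.72 to 1.10). Plxdc2 (chromosome 2, 16277948 to 16673742), its paralog, fell from 5.31 to 2.10 FPKM (log2 −1.34, 95% interval −1.49 to −1.19). Both had a q listed as 0. The level of Plxdc2 was 3.54 times that of Plxdc1 in LPS and 0.744 times in LPS+Dex, so the order of the paralogs turned. Relative to genes of like expression the changes were 0.85 and −1.38.

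**Figure D3:**
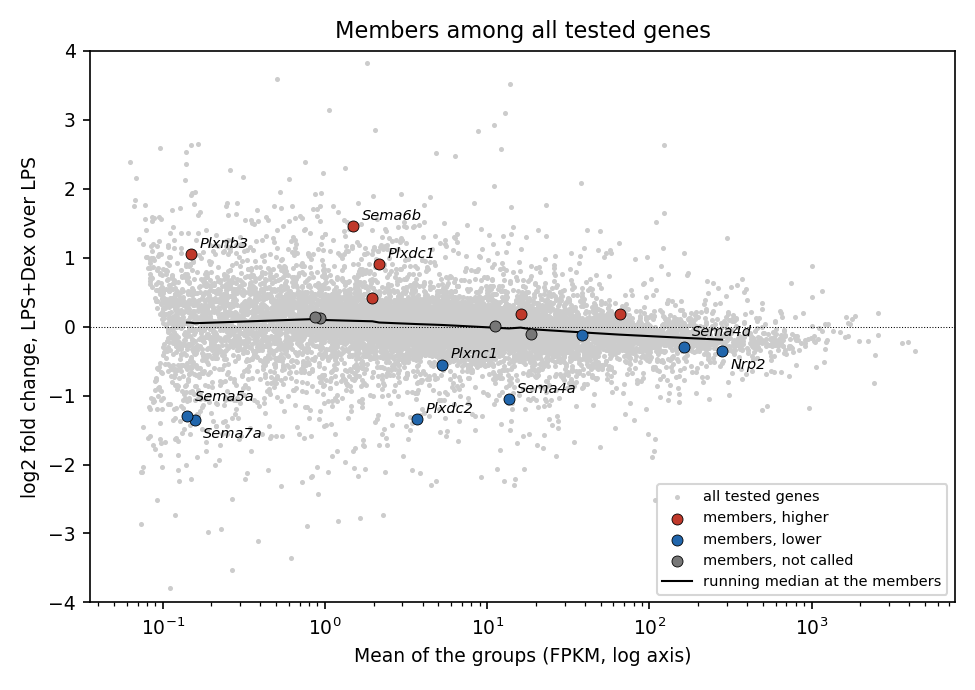
Log2 fold change against the mean of the groups in FPKM (log axis) for all tested genes in grey, with the members coloured by call and a line for the running median of all tested genes at the members' levels. The line lies near 0.05 at the scarcest members, is highest at 0.11 and falls to −0.19 at Nrp2, Nrp2 and Sema4d lie a little below it, and Sema6b, Plxdc1, Plxdc2, Sema4a, Plxnb3, Sema5a and Sema7a lie far from it; 6 genes beyond 4 on the vertical axis are not shown.

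Of 20 genes of co-receptors and other receptors, 16 had a test, of which 2 rose and 9 fell (median log2 −0.26, against −0.011 for all tested genes, of which 17.7% rose and 25.2% fell). Here and in the lists that follow, more genes fell than rose, as over all tested genes. The list also holds Procr, Csf1r, Tlr4, Lrp1 and Ptprc, receptors known mainly for other ligands, so the count is not one of semaphorin receptors alone. Procr, the protein C receptor gene, fell from 52.5 to 16.5 FPKM (log2 −1.67) and Csf1r, the receptor gene of macrophage colony-stimulating factor, rose from 142 to 168 FPKM (log2 0.24, and 0.40 relative to genes of like expression). Kdr, the VEGF receptor that joins neuropilins, fell from 24.8 to 11.8 FPKM (log2 −1.07), and Flt1 fell from 6.00 to 3.54 FPKM (log2 −0.76); both were chosen after their values were seen. The plexin-A1 partners Trem2 and Tyrobp were not called, at 209 and 199 FPKM and at 787 and 734 FPKM. Met, a partner of plexins of the B type, fell from 13.5 to 10.4 FPKM (log2 −0.38). Of 5 VEGF ligands, 4 had a test, of which Pgf and Vegfc fell and Vegfb rose, from 8.32 to 10.5 FPKM (log2 0.33). Pgf fell from 1.13 to 0.110 FPKM (log2 −3.36, q listed as 0). Its LPS+Dex value lay close to the highest value of any gene left without a test for low signal. Vegfc, the ligand of Nrp2, fell from 1.36 to 0.927 FPKM (log2 −0.55), and Vegfa was not called at 0.208 and 0.188 FPKM.

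Downstream of the plexins, 22 of 23 genes of GTPases and their regulators had a test, of which 5 rose and 10 fell (median log2 −0.11), beside 42.9% called over all tested genes and 47.6% over those of at least 1 FPKM, where 19 of these genes lie. Rnd3, an atypical small GTPase gene, fell from 13.2 to 5.39 FPKM (log2 −1.29) in the authors' deposited table. Mras, of the Ras family, rose from 0.363 to 1.09 FPKM (log2 1.58), and Rhoa was not called at 242 and 227 FPKM. Sh3bp1, a Rac GAP that binds plexin-D1, rose from 10.7 to 20.6 FPKM (log2 0.94). Rras, a direct target of the plexin GAP domain, rose from 34.4 to 38.2 FPKM (log2 0.15, and 0.23 relative to genes of like expression), whereas Rras2 fell from 17.6 to 9.82 FPKM (log2 −0.84) and Rap1b, another plexin target, from 621 to 481 FPKM (log2 −0.37, and −0.18 relative to genes of like expression). Sh3bp1, Rras2, Rras and Rap1b were chosen after their values were seen.

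Of 24 cytoskeleton effectors and kinases, 20 had a test, of which 5 rose and 8 fell (median log2 −0.072), and 1 of those called changed by at least 1.5-fold, beside 42.9% of all tested genes called and 10.5% called with such a change. The redox enzyme genes Mical1 and Mical2, whose proteins take actin filaments apart, went in opposite directions. Mical1 fell from 1.10 to 0.737 FPKM (log2 −0.57) and Mical2 rose from 1.07 to 1.68 FPKM (log2 0.65) in the authors' deposited table. Cfl1, the cofilin gene, was not called at 1182 and 1135 FPKM. Of 9 protease genes that can process semaphorins, 7 had a test, of which 1 rose and 5 fell (median log2 −0.22), beside 47.6% of genes of at least 1 FPKM called in either direction. Furin, whose product cleaves class 3 semaphorins, rose from 59.5 to 66.4 FPKM (log2 0.16, and 0.27 relative to genes of like expression). Adamts4 fell from 4.92 to 2.38 FPKM (log2 −1.05), and Mmp14, a protease that sheds Sema4D, from 364 to 286 FPKM (log2 −0.35, and −0.16 relative to genes of like expression). Adam10 was not called at 21.0 and 21.3 FPKM.

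Other guidance families were sparser in these cells. Of 22 ephrin and Eph receptor genes 3 had a test and Epha4 was called, lower from 2.07 to 1.68 FPKM (log2 −0.30), while Efna2 was not called at 0.618 and 0.519 FPKM. Of 22 netrin, slit and related genes 7 had a test and Unc5b, a netrin receptor, was called, lower from 0.295 to 0.136 FPKM (log2 −1.12), while Ntng2 was not called at 11.7 and 12.1 FPKM. Over all tested genes 42.9% were called, a share that rises with expression. Of the tested genes of these families, 1 of 3 and 2 of 7 reached 1 FPKM in a group. The highest value was 2.07 FPKM among the ephrins and Eph receptors and 12.1 FPKM among the netrins and slits, against 315 FPKM among the members. The difference between families was not tested.

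**Figure D4:**
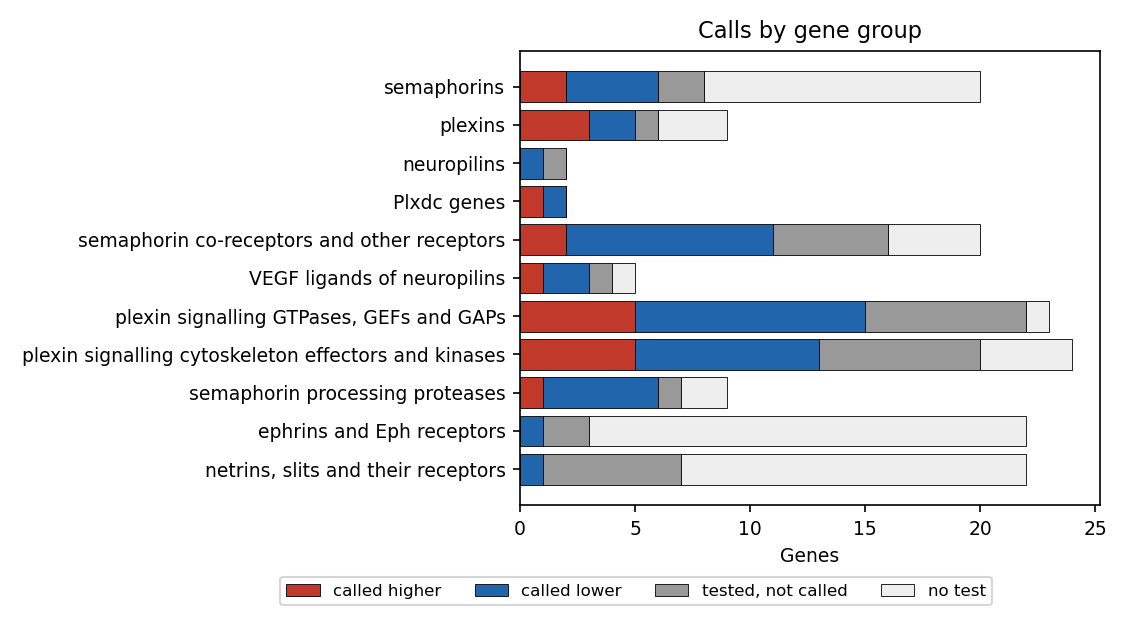
Number of genes called higher, called lower, tested but not called, and without a test, as stacked bars, for the members in 4 groups, the 5 lists of the pathway and the 2 other guidance families. The members divide between higher and lower calls, the pathway lists have more lower than higher calls, as do all tested genes (25.2% lower, 17.7% higher), and the other guidance families consist mostly of genes without a test.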

How the data were processed

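Gene expression was measured by RNA sequencing of 6 samples in 2 groups of 3, grouped by their titles. Stranded paired-end libraries were made from total RNA, per the labels' protocols. The authors deposited 1 table that gives each gene an FPKM value in each group, per the file headers. The sources used here do not say how replicates were combined. CASAVA, TopHat 1.4.1, Cufflinks 2.0.2 and build mm9 are named in the submitters' processing notes without roles. The deposited log2 fold change and test statistic were read as scores, because a stand-in for infinity replaces values where a group is at 0. The deposited p-values equal the 2-sided normal tail of the test statistic and the q-values the Benjamini-Hochberg adjustment over 11755 tested genes, to within 2.77e-06 and 1.33e-06. FPKM depends on the assumed transcript length and on the library total.

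Calls used q under 0.05, which is a test across all genes by the authors. Implied SEs, 95% intervals (1.96 SE), a centring on the median of genes of at least 1 FPKM (−0.025), a running median over 501 genes of like mean FPKM with Benjamini-Hochberg adjustment, and sums over gene lists were computed with Python 3.11.15, pandas 2.3.3 and scipy 1.17.1. Only the removal of the running median was run on simulated data. That simulation changed a far smaller share of genes than the 42.9% called here, so it does not show how the removal performs on these data. No test on samples was run, since the table holds no values per sample, and library depth is unknown, so no counting interval is given. Of the 33 members, 15 had no test. Each tested member is named, and from each other list the called gene with the largest rise, that with the largest fall (at least 1 FPKM in a group) and the uncalled gene with the highest mean. Further genes, among them Trem2, Met, Vegfc, Mmp14 and Unc5b, which is below 1 FPKM, lie outside this rule and were chosen after their values were seen. The members, lists, ligand-receptor pairs and promoter motifs were chosen with earlier results of these data known.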

Additional observations from a re-analysis of the deposited data

Results flagged for a closer look

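Of the 15 members without a test, 2 had a higher value in LPS+Dex than in LPS and an unadjusted deposited p under 0.05. Sema3g stood at 0.0305 FPKM in LPS+Dex and was listed at 0 in LPS, and Plxnb1 stood at 0.0142 FPKM in LPS+Dex and at 0.000854 FPKM in LPS. The authors' deposited table gives neither a tested q, and both values lie below 0.110 FPKM, the highest value of any gene without a test for low signal.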

How the results depend on the processing

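Members called higher numbered 6 and members called lower 8. With Bonferroni adjustment these were 3 and 5, with a change of at least 1.5-fold 3 and 4, and relative to the running median of genes of like expression 6 and 5. With the last, Nrp2, Sema4d and Plxnb2 were no longer called lower. Plxnb2 also lost its call at q under 0.01 and under centring, and Sema4c (log2 −0.10) was called lower at q under 0.1. With q under 0.01 the counts were 6 and 7, with q under 0.1 they were 6 and 9, and for genes of at least 1 FPKM 5 and 6. By the authors' q, 42.9% of all tested genes were called, and 47.6% of those of at least 1 FPKM. With a change of at least 1.5-fold it was 10.5% of all tested genes. No share over all genes was computed for the other settings, so the counts under them are a description only. The median log2 fold change of the tested members, −0.048, ran from −0.10 to 0.0057 under the alternatives tried. Of the counts for the other gene lists, 11 moved by over 1.5 times with the minimum of 1.5-fold, 8 with Bonferroni adjustment, 0 with centring and 1 with each of the other settings. No member reversed its direction under any of them. The table holds 1 value per group, so leaving out a replicate was not run. No paired analysis was possible because the table has no columns per sample. Depth is unknown, and members below about 0.1 FPKM could not be tested.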
